A study of Mus musculus with 9 samples.

Results

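Mouse pancreatic stellate cells carrying a control guide RNA were compared at low and at normal oxygen, and 6 of the 9 libraries of the series enter that comparison. The 3 R26 normoxia libraries came from cells kept at 20% oxygen and the 3 R26 hypoxia libraries from cells kept at 0.5% oxygen, both for 48 h. Each library was chosen by its label alone, and the 3 HIF1a-ko hypoxia libraries served only to share the estimate of the spread. All cells were C57BL6 stellate cells that had outgrown spontaneously into an immortal line, carried lentiviral Cas9 with a guide to R26 (Rosa26, a locus often cut as a control), and had been selected with puromycin at 2 ug/mL as a mixed population, in medium with 10% FBS. The groups at both oxygen levels therefore share the guide, Cas9 and the selection, and the groups differ in the labels by oxygen only. Whether replicate libraries stem from cultures grown apart is not stated in the labels. A p-value here therefore reflects the scatter among 3 libraries per group, which could be technical.

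Pancreatic stellate cells are fibroblast-like cells that store retinoids when quiescent and lay down matrix when activated. In low oxygen, the prolyl hydroxylases that mark HIF subunits for destruction lose their substrate oxygen. HIF dimers then bind DNA at short core sites, of which ACGTG is a common form. The best known outcome is a switch to glycolysis and to angiogenic signals. Genes on a list of known HIF targets and glycolysis genes (62 of them tested) were set aside here. What follows describes the remaining transcriptome by function: transcription factors, secreted factors, receptors, transporters, non-coding RNAs and the programmes that fell. The list is not complete, and known hypoxia genes such as Mir210 remain below.

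Library totals were 43837809 to 107840223 counts, and 1 library of each group held about as many counts as the other two together. That library is called deeper below and the others shallower, a split made from the data. Of 16 fibroblast and stellate markers tested 3 rose, the receptor Pdgfra and the collagens Col3a1 and Col1a2, and 2 fell, the proteoglycan Dcn (by 1.07 on the log2 scale, adjusted p = 0.000142) and Ngfr. Vim and Pdgfrb, an intermediate filament and a growth factor receptor that were not called, stood at 3713 to 4269 and at 382 to 434 CPM (counts scaled to the library's size) in the 6 libraries. Markers that define stellate cells were at or near 0: Lrat, which makes retinyl esters, had a count in 1 of the 6 libraries, Gfap stood at 0.189 to 0.441 CPM and Des at 0.246 to 3.44 CPM. The cells are therefore called R26 cells below. The summed level of 6 fat cell markers was 0.6 to 96.2 CPM in normoxia and 0.35 to 120 CPM in hypoxia, with the deeper library lowest in both groups, and none of the 6 was called in either direction by edgeR (0 at an unadjusted p under 0.05, 0 by DESeq2). Of 11 epithelial markers Krt19 and Muc1 rose, and the sum of the 11 ran from 54 to 154.8 CPM in normoxia and from 93.3 to 173.9 CPM in hypoxia. Of 8 endothelial markers Vwf fell (sums of 11.4 to 18.6 and 9.41 to 17.7 CPM), and no leukocyte marker of 10 and no acinar or islet marker of 5 tested was called in either direction (0 at an unadjusted p under 0.05, 0 by DESeq2), with leukocyte sums of 13.6 to 64.1 and 9.57 to 86.8 CPM. The deeper library had the lowest sum in both groups for epithelial, leukocyte and endothelial markers too. Igha, a leukocyte marker, stood at 25.9, 11.5 and 0 CPM in normoxia and at 19.1, 38.9 and 0 CPM in hypoxia. Such a gap inside each group widens its spread, so markers like it could hardly be called. The part of other cells in the results below was not tested.

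Low oxygen changed 4697 of 18211 genes tested (25.8%), with 2392 higher (13.1%) and 2305 lower (12.7%). Most changes were small: 395 genes rose (2.17%) and 211 fell (1.16%) by at least 1 on the log2 scale, which on a linear scale is a doubling or a halving. Called genes are those with an adjusted p under 0.05 in edgeR's quasi-likelihood test with Benjamini-Hochberg adjustment over all genes tested, and "rose" and "fell" are used for these alone. With the replicate number as a block, 7409 genes were called (3909 higher, 3500 lower), and these held 4660 of the 4697. Groups did not overlap for 6997 genes (38.4% of those tested), among them 4657 of the changed genes. Among protein-coding genes 30.2% changed, which is the nearer background for the protein classes below. Genes are named by a rule: in each class the 5 highest and 5 lowest log2 fold changes among changed genes with a mean log2 CPM of 3 or more (0 or more for long non-coding RNAs), no overlap between groups, a proper symbol and no place on the known target list. Orders such as highest or largest refer to genes that meet this rule, and genes below that level can have larger fold changes.

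The promoters of the highest riser that meets the naming rule in each class are shown to let the ACGTG core be read beside the values that follow. They are RefSeq windows of GRCm38.p6 from 250 bases before to 50 bases after the annotated start, 5′ to 3′ on the gene's strand. Capitals mark ACGTG or its reverse complement CACGT, searched on both strands. Plxna4, the highest such riser among receptors, had no entry, and Notch3 is the next.
Nfil3 (chr13:52980990-52981289, minus strand): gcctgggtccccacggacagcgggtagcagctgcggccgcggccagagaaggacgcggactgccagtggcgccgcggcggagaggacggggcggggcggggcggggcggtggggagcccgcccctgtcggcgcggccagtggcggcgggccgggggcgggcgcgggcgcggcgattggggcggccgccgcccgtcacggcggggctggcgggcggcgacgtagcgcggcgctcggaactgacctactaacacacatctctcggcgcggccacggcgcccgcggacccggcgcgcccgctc
Apln (chrX:48034804-48035103, minus strand): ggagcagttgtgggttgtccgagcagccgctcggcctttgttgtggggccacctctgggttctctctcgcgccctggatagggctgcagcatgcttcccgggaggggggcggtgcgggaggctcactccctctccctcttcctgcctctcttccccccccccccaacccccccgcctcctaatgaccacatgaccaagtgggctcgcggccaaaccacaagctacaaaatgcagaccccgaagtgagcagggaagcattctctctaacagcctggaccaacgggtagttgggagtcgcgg
Notch3 (chr17:32166841-32167140, minus strand): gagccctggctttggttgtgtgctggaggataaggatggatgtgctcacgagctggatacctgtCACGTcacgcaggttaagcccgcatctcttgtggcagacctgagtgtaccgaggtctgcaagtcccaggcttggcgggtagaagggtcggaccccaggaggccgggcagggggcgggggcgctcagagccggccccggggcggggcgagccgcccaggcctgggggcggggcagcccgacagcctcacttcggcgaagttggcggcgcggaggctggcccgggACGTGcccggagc
Slc27a3 (chr3:90389889-90390188, minus strand): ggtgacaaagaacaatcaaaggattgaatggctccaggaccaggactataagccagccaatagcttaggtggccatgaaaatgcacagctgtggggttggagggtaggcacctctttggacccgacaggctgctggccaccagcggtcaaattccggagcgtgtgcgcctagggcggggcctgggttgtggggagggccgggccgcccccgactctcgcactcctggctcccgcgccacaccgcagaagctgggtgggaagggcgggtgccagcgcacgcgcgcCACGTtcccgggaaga
Dubr (chr16:50732724-50733023, minus strand): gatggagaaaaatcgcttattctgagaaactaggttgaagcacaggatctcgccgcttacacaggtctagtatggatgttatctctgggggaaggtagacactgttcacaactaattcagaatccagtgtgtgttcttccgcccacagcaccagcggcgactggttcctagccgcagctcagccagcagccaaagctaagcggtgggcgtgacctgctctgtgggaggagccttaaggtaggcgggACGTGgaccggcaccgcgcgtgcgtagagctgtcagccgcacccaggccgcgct
Ak4 (chr4:101419039-101419338, plus strand): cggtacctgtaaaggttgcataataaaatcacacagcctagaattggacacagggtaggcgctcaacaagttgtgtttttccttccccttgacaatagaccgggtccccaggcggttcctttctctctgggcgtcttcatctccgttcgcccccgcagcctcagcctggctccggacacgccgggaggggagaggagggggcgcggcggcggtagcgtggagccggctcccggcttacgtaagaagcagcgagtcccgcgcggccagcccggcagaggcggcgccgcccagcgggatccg
Notch3 holds the letters 186 bases before and 37 bases after its start, Slc27a3 34 bases after and Dubr 4 bases before. The windows of Nfil3, Apln and Ak4 do not hold them. Only ACGTG was searched, so this says nothing of other forms of the core, such as GCGTG, or of sites elsewhere. Across all 32851 windows that RefSeq gives, 19.6% hold ACGTG on either strand, and 24.6% of the 12143 tested genes that have a window (18211 were tested), so a match alone sets no gene apart. Among the 62 genes set aside as known targets, 51 had a window and 26 of these held the letters (51%).

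Among transcription factors, 160 of 892 tested rose and 88 fell, with a median log2 fold change of 0.06 against -0.01 over all genes tested. The share called was 27.8%, below the 30.2% of protein-coding genes. Changes were modest, since 5 of these genes rose and 10 fell by at least 1 on the log2 scale. Nfil3, a basic leucine zipper repressor of the circadian and immune systems, stood at 14.8, 15.7 and 14.6 CPM in normoxia and at 33.0, 31.4 and 31.5 CPM in hypoxia. All 3 hypoxic libraries lay above all normoxic ones, which the naming rule requires of a riser. The rise was 1.09 ± 0.06 (SE) on the log2 scale (adjusted p = 2.9e-06). Hoxa3, a homeobox factor of positional identity, rose by 1.01 ± 0.12, and Rfx3, a factor that drives genes of cilium assembly, by 0.99 ± 0.13. Hoxa3 shares 24.3% of its sequence with other genes, most with Hoxaas2 on the other strand. With the replicate block, 393 transcription factors were called.

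Immediate early genes were among the risers. Junb, an AP-1 subunit, went from 68.8, 69.7 and 58.1 to 133.5, 142.2 and 112.5 CPM (log2 fold change 0.98 ± 0.10, adjusted p = 0.000174). Egr1, a zinc finger factor induced within minutes by growth factors, rose by 0.91 ± 0.12. The following members were picked after their values were seen. Fos went from 3.71, 5.13 and 3.02 to 9.92, 13.3 and 11.1 CPM, a rise of 1.57 ± 0.26, and Fosb rose by 0.98 ± 0.18. Csrnp1, Maff and Zfp36, an mRNA decay factor of the same early class, rose by 0.90 ± 0.14, 0.83 ± 0.11 and 0.82 ± 0.06. Normoxic and hypoxic libraries did not overlap for any of these 7 genes, nor for 38.4% of all genes tested. The naming rule requires this of Junb and Egr1, and the others were picked with their values in view.

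Among the named factors that fell, the largest changes were in the ETS genes Etv4 and Etv5, targets and effectors of fibroblast growth factor signalling. Etv4 stood at 15.7, 16.9 and 16.5 CPM in normoxia and at 7.81, 8.57 and 7.88 CPM in hypoxia (log2 fold change -1.02 ± 0.07, adjusted p = 1.6e-05). Etv5 went from 17.7, 20.7 and 21.2 to 9.81, 12.6 and 9.06 CPM (-0.93 ± 0.13), and it shares 24.5% of its sequence with other genes. Jdp2, a repressor within the AP-1 group, fell by 0.73 ± 0.08 and Tfap4, a helix-loop-helix factor of E-box sites, by 0.68 ± 0.11. Zfp365 fell from 60.3 to 62.2 CPM in normoxia to 37.7 to 38.9 CPM in hypoxia. Picked after their values were seen, Plagl1, Tfcp2l1 and Tead4, a partner of YAP on DNA, fell by 1.36 ± 0.11, 1.71 ± 0.24 and 0.85 ± 0.11.

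The Hox genes named here, apart from Hoxa3, were picked after their values were seen. Of the family, 8 of 24 tested rose (33.3%), where 17.9% of transcription factors and 13.1% of all genes tested rose. None fell by edgeR (0 at an unadjusted p under 0.05, 0 by DESeq2), and the median of the family was 0.41. Hoxb8 went from 75.0, 75.6 and 80.9 to 107.1, 106.2 and 113.4 CPM, and Hoxb4 from 41.4 to 42.5 up to 54.1 to 58.6 CPM. Hoxb7 rose by 0.48 ± 0.06, Hoxb9 by 0.34 ± 0.07 and Hoxa2 by 0.51 ± 0.10. Hoxb3, at 43.1 to 55.2 CPM in normoxia and 61.6 to 77.0 CPM in hypoxia, shares 51.4% of its sequence, most with Hoxb3os, so their reads cannot be told apart fully. The family was gathered by symbol, not by a fixed list.

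Among secreted factors, 61 of 281 tested rose and 36 fell, with a median of 0.07 (34.5% called, against 30.2% of protein-coding genes). Apln, the ligand of the apelin receptor and a vascular signal, rose most among those named by the rule, from 13.8, 13.1 and 12.6 to 65.8, 59.9 and 59.6 CPM (4.7-fold, log2 fold change 2.23 ± 0.07, adjusted p = 1.0e-07). Wnt4, a signalling glycoprotein, went from 6.76, 6.20 and 7.04 to 22.7, 26.6 and 25.5 CPM, a rise of 1.90 ± 0.11. Mif, a cytokine that recruits immune cells, went from 74.4, 72.8 and 45.4 to 309, 286 and 148 CPM, with the deeper library lowest in both groups. Mif shares 50.9% of its sequence with other genes, so its level is uncertain. Tnfsf9, the ligand of the T cell receptor 4-1BB, rose by 1.35 ± 0.11, and Serpinb6b, of a serpin clade that mostly stays inside cells, by 1.42 ± 0.09.

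The next 8 secreted or growth factor genes were picked after their values were seen, because they rose, and stand for no family. Of 16 bone morphogenetic and growth differentiation factors tested 2 rose and 2 fell (25% called). Of 10 fibroblast growth factors 3 rose and 1 fell (40% called), where 30.2% of protein-coding genes were called. Gdf10, a TGF-beta family ligand, went from 32.1, 38.2 and 35.7 to 77.2, 69.8 and 78.5 CPM, and Fgf10, which signals from mesenchyme to epithelium, from 16.9, 14.4 and 16.3 to 33.4, 29.4 and 39.02 CPM. Inhba, the subunit of activin A, rose by 1.00 ± 0.10, and Fstl3, an activin antagonist that shares 46.2% of its sequence, by 1.21 ± 0.11. Adm2, a relative of adrenomedullin, went from 0.428 to 0.633 CPM up to 2.47 to 3.49 CPM. Fgf11, a member of the family by symbol whose product is thought to stay inside the cell, rose by 2.51 ± 0.19. Ptx3, a soluble pattern recognition protein, and Cthrc1, a matrix protein of activated fibroblasts, rose by 1.22 ± 0.13 and 1.50 ± 0.11. No overlap between groups was seen for these 8 genes, which were picked because they rose, nor for 38.4% of all genes tested.

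Among the secreted factors named by the rule, the largest fall was that of Cxcl15, a chemokine for neutrophils, at 61.9, 63.2 and 63.0 CPM in normoxia and 31.2, 30.8 and 31.4 CPM in hypoxia. This was a fall of 1.01 ± 0.06 on the log2 scale (adjusted p = 4.3e-06), and the spread within a group was small beside the gap. Bmp4, a morphogen, went from 17.1, 14.7 and 15.8 to 7.83, 8.50 and 9.19 CPM. Ogn, a small leucine-rich proteoglycan, fell by 0.72 ± 0.12, from 180 to 238 CPM down to 106 to 136 CPM. Ccl2, the monocyte chemokine, fell by 0.71 ± 0.12. Among 21 chemokine ligands tested, 2 rose and 4 fell (28.6% called, against 30.2% of protein-coding genes).

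Among receptors, 74 of 344 tested rose and 45 fell (median 0.09, 34.6% called, against 30.2% of protein-coding genes). Plxna4, a plexin that forms receptors for class 3 semaphorins, went from 18.1, 17.98 and 17.7 to 54.2, 58.4 and 58.2 CPM, a rise of 1.67 ± 0.07 (adjusted p = 8.5e-07). Nrp2, a neuropilin that binds semaphorins and VEGF-C beside plexins, went from 5.94, 5.41 and 5.11 to 12.6, 7.96 and 13.4 CPM, so that hypoxia 2 lay closest to normoxia. Notch3, a Notch receptor of perivascular cells, went from 9.29, 8.36 and 9.44 to 19.4, 20.2 and 21.4 CPM (1.17 ± 0.09, adjusted p = 2.6e-05). Csf2ra, the binding chain of the GM-CSF receptor, rose by 0.91 ± 0.14 and Gpr162, an orphan receptor, by 0.90 ± 0.08. Plexins went both ways, since Plxnb1, a receptor for semaphorin 4D, fell from 27.0 to 29.3 CPM down to 15.2 to 15.9 CPM.

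Scara5, a scavenger receptor that takes up ferritin, showed the largest fall of the receptors named by the rule, from 52.2, 54.5 and 46.5 to 12.5, 17.6 and 9.27 CPM (log2 fold change -1.98 ± 0.24, adjusted p = 0.00043). Sort1, the sorting receptor sortilin, went from 31.5, 33.6 and 29.7 to 14.4, 13.5 and 10.6 CPM. Lrp11 stood at 19.3 to 19.4 CPM in normoxia and at 9.11 to 9.74 CPM in hypoxia. Fzd6, a Wnt receptor, fell by 0.92 ± 0.07. Ngfr, the p75 neurotrophin receptor and a marker of stellate cells, went from 2.33, 2.51 and 2.80 to 0.479, 0.637 and 0.199 CPM, a larger fall of 2.75 ± 0.35 at a lower level, and is named as a marker.

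Gpr35 and Hcar1 were picked after their values were seen, because they were close to silent in normoxia. Gpr35, a G protein-coupled receptor for small acidic metabolites, stood at 0.452, 0.348 and 0.169 CPM in normoxia and at 9.40, 10.5 and 8.91 CPM in hypoxia, a rise of 5.05 ± 0.23 on the log2 scale. Hcar1, the lactate receptor, went from 0.384, 0.465 and 0.304 to 2.46, 1.35 and 1.19 CPM. Its adjusted p was 0.0124, and 0.0575 without R26 normoxia replicate 3. Of 34 receptors with a Gpr symbol, 8 rose and 4 fell (35.3% called, against 30.2% of protein-coding genes).

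Among transporters and channels, 89 of 523 tested rose and 98 fell (median 0.01, 35.8% called, against 30.2% of protein-coding genes). Slc27a3, a fatty acid transport protein with acyl-CoA ligase activity, went from 6.01, 5.46 and 5.35 to 14.5, 12.5 and 13.3 CPM, a rise of 1.26 ± 0.09 (adjusted p = 1.7e-05). The zinc importer Slc39a10 rose by 0.77 ± 0.11 and Slc30a9, a zinc transporter of mitochondria, by 0.68 ± 0.07. Of 19 zinc transporters of the Slc30 and Slc39 families, 6 rose and 2 fell (42.1% called, against 30.2% of protein-coding genes). Cacna1g, a T-type calcium channel, stood at 41.6 to 44.1 CPM in normoxia and 67.7 to 76.8 CPM in hypoxia. Picked after their values were seen, the copper pump Atp7b went from 0.203, 0.0929 and 0.203 to 2.05, 2.03 and 2.62 CPM, and Asic3, a channel opened by protons, from 1.53 to 2.08 CPM up to 6.40 to 9.59 CPM.

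Of the 5 transporters and channels named by the rule that fell, Slc7a5, Slc7a11 and Slc7a1 carry amino acids. Slc7a5, the large neutral amino acid transporter LAT1, went from 73.1, 79.8 and 86.7 to 30.4, 29.1 and 32.4 CPM (log2 fold change -1.38 ± 0.09, adjusted p = 1.5e-05). Slc7a11, the cystine importer, went from 5.83, 5.34 and 7.23 to 2.50, 2.01 and 2.49 CPM, and Slc7a1, which carries arginine and lysine, from 53.3 to 54.7 CPM down to 28.6 to 31.2 CPM. Lrrc8d, a subunit of the volume-regulated anion channel, fell by 0.87 ± 0.09. Lrrc8b of the same channel, picked after its values were seen, fell by 1.55 ± 0.17. Slc22a23, an orphan carrier, fell from 10.4 to 11.5 CPM down to 5.91 to 6.12 CPM, and Abca8a, an ABC transporter picked after its values were seen, by 2.31 ± 0.21. Of 24 nucleotide sugar transporters of the Slc35 family 2 rose and 7 fell (37.5% called). Of 41 mitochondrial carriers 4 rose and 9 fell (31.7% called), where 30.2% of protein-coding genes were called.

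**Figure D1:**
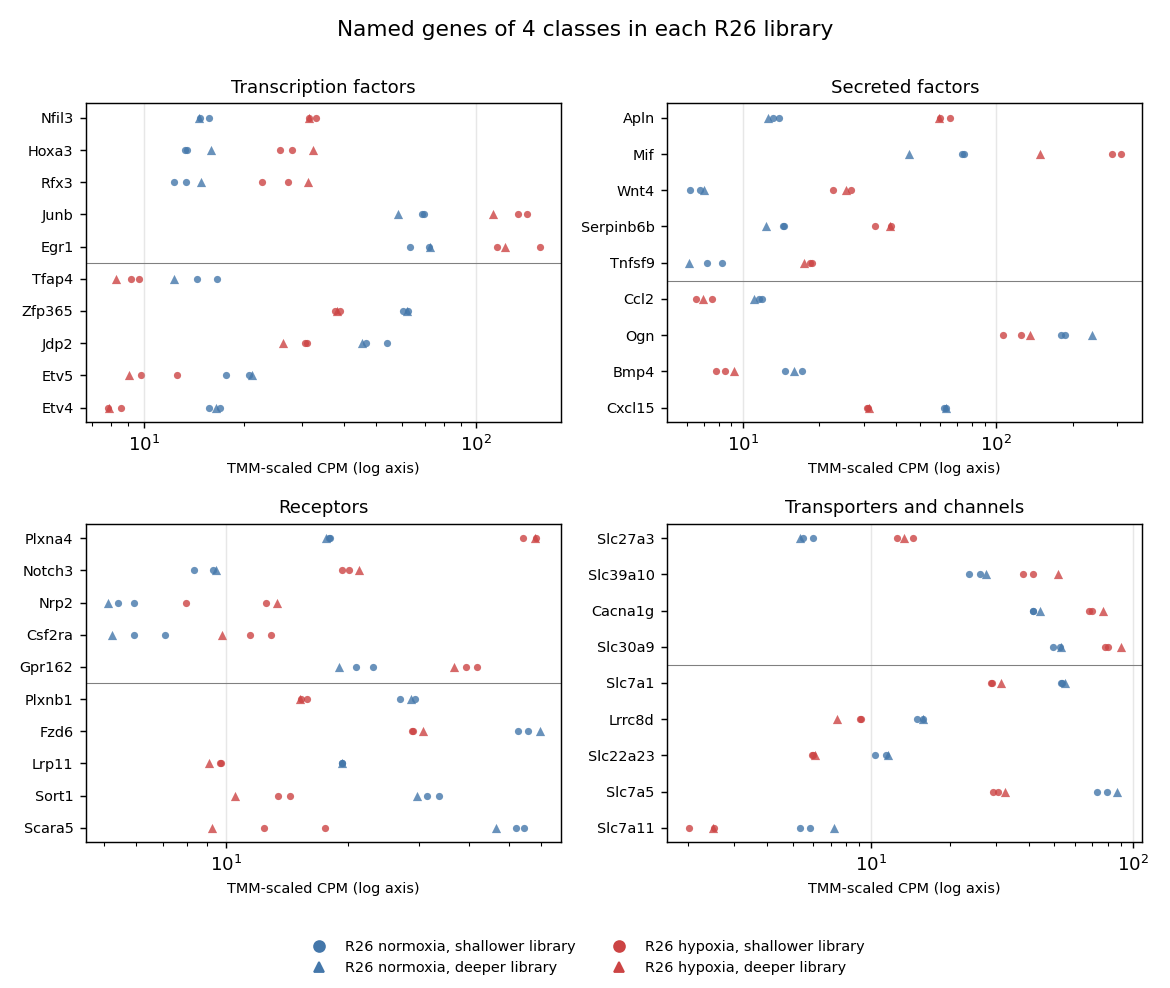
Each point is 1 library, with TMM-scaled CPM on a log axis and the named genes of 4 classes as rows, those that rose above the grey line and those that fell below it in each panel. Circles are shallower and triangles deeper libraries. In each row the 3 normoxic libraries lie on 1 side of the 3 hypoxic ones, as the naming rule requires. The gap is wide for Apln (12.6 to 13.8 against 59.6 to 65.8 CPM) and narrow for Nrp2 (5.11 to 5.94 against 7.96 to 13.4 CPM).

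Of 1838 long non-coding RNAs tested, 164 rose and 74 fell, with a median of 0.04 (12.9% called, against 25.8% of all genes tested). The strand setting of the counting is not given in the sources used here, so reads of an antisense RNA and of its partner cannot be told apart. Among the 796 with no exon shared with another gene, 85 rose and 25 fell, and among the 967 that overlap exons on the other strand, 69 rose and 44 fell. Dubr, a long RNA known from muscle cell differentiation, went from 21.5, 18.1 and 20.4 to 42.9, 46.8 and 51.1 CPM (log2 fold change 1.23 ± 0.08, adjusted p = 1.2e-05). Ptgs2os2, which lies beside Ptgs2, rose by 1.07 ± 0.16 and Gdap10 by 0.88 ± 0.09. Hoxb3os rose by 0.89 ± 0.08, and Hoxb3 covers 76.2% of its exons on the other strand. Dhx58os went from 1.13 to 1.56 CPM up to 2.27 to 2.50 CPM.

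Fewer non-coding RNAs fell than rose. Ptprv, whose symbol names a receptor phosphatase but which the annotation classes as a processed transcript, went from 3.07, 2.83 and 3.28 to 1.15, 1.31 and 0.728 CPM. Dlx4os fell by 0.95 ± 0.15 and Spata5l1, also listed as a processed transcript, by 0.62 ± 0.14. Prss23os fell by 0.58 ± 0.11, and Prss23 covers 54.3% of its exons on the other strand. Ttc39aos1, at 1.07 to 1.22 and 0.643 to 0.696 CPM, had an adjusted p of 0.00943 that became 0.0694 with the shallower libraries only and 0.051 without R26 hypoxia replicate 3. The replicate block called 393 long non-coding RNAs.

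Transcripts with clone names, left out by the rule and picked after their values were seen, showed larger rises. The protein-coding 2610528A11Rik went from 1.58, 0.999 and 0.597 to 38.9, 47.8 and 30.9 CPM, a rise of 5.33 ± 0.28 (adjusted p = 3.1e-06). The non-coding 4930447F24Rik went from 2.64, 2.69 and 2.76 to 30.99, 32.9 and 33.1 CPM, with little spread inside a group. Another, 4930511M06Rik, rose by 3.04 ± 0.26, Gm16754, which shares 16.6% of its sequence, most with Keap1, by 2.06 ± 0.12, and F730043M19Rik by 1.58 ± 0.09. Gm11110, which overlaps Tnfsf9 on the other strand, went from 4.88 to 5.38 CPM up to 15.1 to 15.5 CPM.

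Of 105 microRNA genes tested, 3 rose and 1 fell (3.81% called, against 25.8% of all genes tested). The loci below, Snhg genes included, were chosen with their values in view. The libraries were made from poly-A RNA, so these counts are reads over precursors and host transcripts, and mature microRNAs were not measured. Mir210, a well known hypoxia microRNA, went from 0.113, 0.0697 and 0.0788 to 1.09, 0.995 and 0.908 CPM over its gene (adjusted p = 0.000198). Mir155hg, the host of miR-155, rose by 0.82 ± 0.20 (adjusted p = 0.017, and 0.06 and 0.0684 without R26 normoxia replicate 2 and without R26 hypoxia replicate 3). Mir17hg, the host of the miR-17 cluster, went from 7.84, 7.73 and 6.92 to 5.92, 5.81 and 5.12 CPM, a fall of 0.42 ± 0.10. The mature arms these loci encode are shown from RefSeq (GRCm38.p6) with the seed, bases 2 to 8, in capitals, so that those with a shared seed can be seen.
mmu-miR-210-3p (chr7:141221407-141221428, minus strand): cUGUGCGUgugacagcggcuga
mmu-miR-155-5p (chr16:84714143-84714165, plus strand): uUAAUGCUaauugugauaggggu
mmu-miR-17-5p (chr14:115043684-115043706, plus strand): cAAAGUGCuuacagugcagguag
mmu-miR-20a-5p (chr14:115044183-115044205, plus strand): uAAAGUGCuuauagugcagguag
mmu-miR-18a-5p (chr14:115043867-115043889, plus strand): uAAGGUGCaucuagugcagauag
mmu-miR-19a-3p (chr14:115044048-115044070, plus strand): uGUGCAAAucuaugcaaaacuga
mmu-miR-19b-3p (chr14:115044358-115044380, plus strand): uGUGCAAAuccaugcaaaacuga
mmu-miR-92a-3p (chr14:115044476-115044496, plus strand): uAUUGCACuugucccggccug
In the cluster within Mir17hg, miR-17-5p and miR-20a-5p share the seed AAAGUGC, and miR-19a-3p and miR-19b-3p share GUGCAAA. The small nucleolar host genes went both ways: of 12 Snhg genes tested, 2 rose and 2 fell (33.3% called, against 25.8% of all genes tested). Snhg18 rose by 0.54 ± 0.07 and Snhg17 went down from 50.4 to 59.99 CPM to 38.4 to 43.8 CPM.

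**Figure D2:**
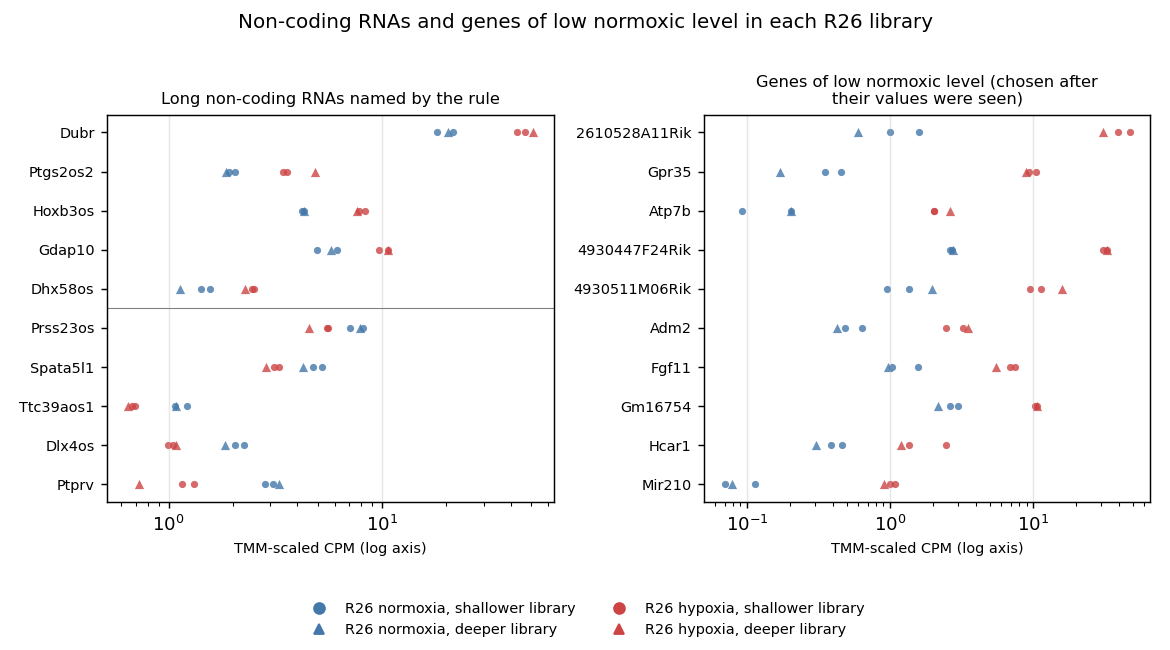
TMM-scaled CPM of each library on a log axis, with circles for shallower and triangles for deeper libraries. The left panel holds the 10 named long non-coding RNAs and the right panel 10 genes of low normoxic level, where Gpr35 moves from 0.169 to 0.452 CPM up to 8.91 to 10.5 CPM and Mir210 stays near 1 CPM even in hypoxia.

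Outside these classes, the 5 highest risers named by the rule rose by at least 2.19 on the log2 scale. Ak4, a mitochondrial adenylate kinase, went from 6.89, 7.53 and 4.45 to 62.6, 58.4 and 54.1 CPM (9.5-fold, adjusted p = 3.2e-06). It shares 10.2% of its sequence, most with the pseudogene Ak3l2-ps. Fam162a, a mitochondrial protein, went from 34.8, 36.4 and 24.8 to 234.6, 231.4 and 139.7 CPM, with the deeper library lowest in both groups. Ccn5, a matricellular protein, rose by 2.41 ± 0.08, Cdhr1, a cadherin known from photoreceptors, by 2.21 ± 0.05, and Ndrg2 by 2.19 ± 0.11. Named after their values were seen, the glycogen synthase Gys1 went from 35.7 to 37.9 CPM up to 150.0 to 171 CPM and Ppp1r3b, which directs a phosphatase to glycogen, rose by 2.15 ± 0.09. Hpse, heparanase, went from 4.25 to 5.64 CPM up to 16.8 to 20.1 CPM, and Itga11, a collagen-binding integrin of fibroblasts, from 99.2 to 104 CPM up to 277 to 299 CPM.

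Tnnt2, cardiac troponin T, showed the largest fall among the named genes outside these classes, from 19.1, 18.8 and 17.2 to 5.22, 5.61 and 4.79 CPM (log2 fold change -1.83 ± 0.10, adjusted p = 3.7e-06). The mitochondrial mt-Cytb, cytochrome b, went from 2834, 2929 and 2868 to 871, 887 and 799 CPM, and all mitochondrial genes together held 1.65% to 1.78% of counts in normoxia and 0.764% to 0.811% in hypoxia. Rragb, a GTPase that signals amino acid supply to mTORC1, fell by 1.46 ± 0.09. Hsd17b7, a sterol synthesis enzyme, fell by 1.45 ± 0.12 and Samd5 by 1.44 ± 0.11. Picked after their values were seen because they fell, the matrix metalloproteinases Mmp3 and Mmp13 went down by 1.22 ± 0.09 and 1.21 ± 0.15, and Cemip, which breaks down hyaluronan, from 356 to 362 CPM down to 172 to 173 CPM.

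Genes that build ribosomes fell together. Of 48 ribosome biogenesis genes tested, 36 fell and none rose by edgeR (1 was higher at an unadjusted p under 0.05, 0 by DESeq2), with a median of -0.48, while 12.7% of all genes tested fell. Rrp12, needed for export of ribosomal subunits, went from 21.4, 19.8 and 19.6 to 9.27, 8.56 and 8.81 CPM (log2 fold change -1.19 ± 0.10, adjusted p = 5.5e-05). Gnl3, nucleostemin, went from 75.3, 70.5 and 73.1 to 35.7, 37.1 and 39.6 CPM, and Nhp2, of the box H/ACA particle that modifies ribosomal RNA, fell by 0.83 ± 0.18. The 87 cytosolic ribosomal protein genes had a median of -0.04, and none was called by edgeR (2 were lower and 0 higher at an unadjusted p under 0.05, 0 by DESeq2). Without R26 normoxia replicate 3 their median was -0.20 and 1 was called, without R26 hypoxia replicate 3 it was 0.21 and 1 was called, and the calls were 6 with the replicate block, 4 with the depth class as a term and 11 with the shallower libraries only. Of 78 mitochondrial ribosomal protein genes, 12 fell (15.4%, against 15.3% of protein-coding genes), among them Mrpl16 by 0.45 ± 0.09. None rose by edgeR (2 higher at an unadjusted p under 0.05, 1 by DESeq2). That count of 12 was 35 with the replicate block, 6 without R26 normoxia replicate 1, R26 hypoxia replicate 3 or HIF1a-ko hypoxia replicate 3, 4 without R26 normoxia replicate 2 and 7 without R26 hypoxia replicate 2.

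The letters CACGTG, an E-box that contains ACGTG, were in the promoter windows of 9 of the 42 ribosome biogenesis genes that have a window (21.4%). Over all windows in the table the share was 7.15%, over the 12143 tested genes with a window 9.67%, over the 1787 genes with a window that fell 17.7%, over 39 proteasome genes 10.3% and over 53 cilium genes 5.66%. Fewer than 80% of the genes tested, risen or fallen have a window (12143 of 18211, 1762 of 2392 and 1787 of 2305), so the comparison with these sets is void. A match is a description of letters and no site of binding.

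Proteasome genes fell in 23 of 46 cases (50%), where 12.7% of all genes tested and 15.3% of protein-coding genes fell. None rose by edgeR (0 at an unadjusted p under 0.05, 0 by DESeq2), and the median was -0.32. Psmb10, a catalytic subunit of the immunoproteasome, went from 29.3, 31.4 and 25.0 to 19.5, 17.2 and 13.8 CPM. The ATPase subunit Psmc2 fell by 0.48 ± 0.09 and Psmb2, a core subunit, by 0.42 ± 0.08. The replicate block called 38 proteasome genes, and 15 were called without R26 normoxia replicate 2. Splicing factors fell in 18 of 45 cases (40%) and none rose by edgeR (3 higher at an unadjusted p under 0.05, 2 by DESeq2). Hnrnpab fell by 0.48 ± 0.10 (23.8% of its sequence shared). Splicing factors called were 28 with the replicate block, 11 without R26 normoxia replicate 2 and 10 without R26 hypoxia replicate 2. Of 28 nuclear pore genes 2 rose and 8 fell (35.7% called, against 30.2% of protein-coding genes), and Seh1l rose by 0.43 ± 0.07. Only 4 of the pore genes were called without R26 normoxia replicate 1, R26 normoxia replicate 2 or R26 hypoxia replicate 2, and 6 without R26 normoxia replicate 3, HIF1a-ko hypoxia replicate 1 or HIF1a-ko hypoxia replicate 3.

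Of 66 lysosomal genes 23 fell (34.8%) and 3 rose (median -0.15), where 12.7% of all genes tested and 15.3% of protein-coding genes fell. The falls included 11 of 20 subunits (55%) of the V-ATPase, the pump that acidifies lysosomes. None of the 20 rose by edgeR (1 higher at an unadjusted p under 0.05, 0 by DESeq2). Atp6v0e2 went from 27.3, 28.2 and 29.6 to 15.3, 14.9 and 14.8 CPM (log2 fold change -0.92 ± 0.05, adjusted p = 4.3e-06). Atp6v0d1 fell by 0.61 ± 0.05 and Atp6v0a1 by 0.57 ± 0.05. Lysosomal genes called were 45 with the replicate block and 17 without R26 normoxia replicate 2 or R26 hypoxia replicate 2. Among genes of mitochondrial import and quality control 2 of 39 rose and 11 fell (33.3% called, against 30.2% of protein-coding genes). The protease Lonp1 rose by 0.37 ± 0.07, and the chaperone Hspd1, which shares 42.1% of its sequence, fell by 0.49 ± 0.05. Called genes of that list were 25 with the replicate block, 7 without R26 normoxia replicate 1 or R26 hypoxia replicate 2, and 8 without R26 normoxia replicate 2.

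Contractile and cytoskeletal genes were mostly lower, with 23 of 57 fallen (40.4%) and 6 risen (median -0.21), where 15.3% of protein-coding genes fell. Tpm1, tropomyosin, went from 963, 957 and 943 to 646, 602 and 639 CPM (log2 fold change -0.60 ± 0.05, adjusted p = 5.9e-05). Vcl, vinculin of cell adhesions, went from 645, 663 and 720 to 387, 372 and 443 CPM, and Actg1, gamma actin, fell by 0.58 ± 0.07. Vcl and Actg1 share 25.1% and 37.4% of their sequence with other genes. Inside the Wnt pathway 2 of 28 genes rose and 9 fell (39.3% called, against 30.2% of protein-coding genes). The signal transducer Dvl2 fell by 0.56 ± 0.05, from 143 ± 8.06 to 96.7 ± 3.11 CPM (SD, n = 3 per group). Without R26 normoxia replicate 3, 7 of the Wnt genes were called and the median of the list went from -0.11 to -0.02.

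Genes of DNA replication and of mitosis were counted apart. Of 55 DNA replication genes 23 fell (41.8%) and 2 rose (median -0.17), where 15.3% of protein-coding genes fell. Chaf1b, a chaperone that loads histones on new DNA, led the falls, from 6.30, 5.97 and 6.11 to 3.13, 2.83 and 3.03 CPM. Mcm5, of the replicative helicase, went from 34.3, 34.8 and 37.7 to 19.1, 17.1 and 20.5 CPM. Of 60 mitotic genes 10 rose and 3 fell (median 0.16), and 21.7% were called, against 25.8% of all genes tested. The kinetochore gene Cenpf and the spindle motor Kif14 rose by 0.61 ± 0.12 and 0.62 ± 0.13, and Cenpv fell by 0.65 ± 0.14. Mitotic genes called were 25 with the replicate block and without R26 hypoxia replicate 2, 7 without R26 normoxia replicate 2 and 8 without R26 hypoxia replicate 1. Of 38 replication-dependent histone genes 5 rose (13.2%, against 13.1% of all genes tested). None fell by edgeR (0 at an unadjusted p under 0.05, 0 by DESeq2), and Hist1h2bc shares 30.6% of its sequence with other histone genes. The histone count was 8 with the replicate block, 3 without R26 normoxia replicate 3, R26 hypoxia replicate 1 or HIF1a-ko hypoxia replicate 2, and 2 without R26 hypoxia replicate 2 or R26 hypoxia replicate 3.

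Primary cilium genes went the other way, with 24 of 60 risen and 3 fallen (median 0.19), where 13.1% of all genes tested rose. Cep290, of the ciliary gate, went from 16.8, 16.3 and 20.4 to 25.0, 25.5 and 32.1 CPM (log2 fold change 0.63 ± 0.12, adjusted p = 0.00417). Tmem107, of the transition zone, rose by 0.62 ± 0.12, and Bbs7, of the complex that moves cargo in the cilium, fell by 0.59 ± 0.11. These changes were small, and no called member passed 1 on the log2 scale. Without R26 normoxia replicate 1, 16 cilium genes were called in place of 27.

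Histone lysine demethylases, which use oxygen as a substrate, rose in 10 of 27 cases (37%) and fell in 2 (median 0.13), where 14.9% of protein-coding genes rose. Kdm4b, which removes methyl groups from lysine 9 of histone H3, went from 61.9, 69.9 and 74.5 to 127, 136 and 146 CPM (log2 fold change 0.99 ± 0.09, adjusted p = 8.1e-05). Jmjd6, a hydroxylase of the same oxygenase family, went from 48.5, 46.0 and 42.7 to 87.3, 80.6 and 76.5 CPM, and Kdm6b, an eraser of the Polycomb mark, rose by 0.65 ± 0.09. The normoxic and hypoxic libraries of these 3 genes did not overlap, which the naming rule requires.

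Genes that restrain MAP kinases moved in both directions, with 12 of 39 risen and 5 fallen (median 0.21, 43.6% called, against 30.2% of protein-coding genes). Dusp1, a phosphatase made early after a stimulus, went from 34.3, 37.9 and 36.4 to 118, 91.9 and 133.7 CPM (log2 fold change 1.66 ± 0.15, adjusted p = 8.1e-05). Ier3 and Ier2, early genes of the same response, rose by 1.05 ± 0.09 and 0.63 ± 0.09. Spry1, a feedback inhibitor of growth factor receptors that was picked after its values were seen, went from 3.01, 3.02 and 2.09 to 1.44, 1.57 and 0.851 CPM. Of its family, named with values in view too, Spry3 rose by 1.39 ± 0.16 (adjusted p = 0.00032), and Spry2 (-0.17 ± 0.09) and Spry4 (-0.04 ± 0.10) were not called. In the Notch pathway 6 of 31 genes rose and 2 fell (25.8% called, as over all genes tested), with the receptor Notch1, picked after its values were seen, down by 0.30 ± 0.07, the DNA-binding partner Rbpj up by 0.54 ± 0.07 and the protease Adam17, which cleaves Notch, up by 0.48 ± 0.05 beside Notch3 itself. With the replicate block 26 genes of MAP kinase feedback and 14 of the Notch pathway were called.

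Smaller programmes held single clear members. In amino acid breakdown 4 of 29 genes rose and 11 fell (51.7% called, against 30.2% of protein-coding genes). The median was -0.14, and -0.03 without R26 hypoxia replicate 3. Aass, of lysine breakdown, went from 29.3 ± 0.708 to 50.3 ± 3.25 CPM. Gcsh, of the glycine cleavage system, fell by 0.66 ± 0.07 while Amt of the same system rose by 0.70 ± 0.11. Among genes of iron-sulfur clusters and haem 4 of 27 rose and 6 fell (37% called). Alas1, which starts haem synthesis, rose by 0.42 ± 0.06 and Nubp2 fell by 0.48 ± 0.07. Of 34 axon guidance and ephrin ligand genes 9 rose and 3 fell (35.3% called). Sema4g and Sema6d rose by 0.72 ± 0.10 and 0.52 ± 0.05, and Ntn4, a netrin, fell by 0.53 ± 0.08. Of 44 genes of glycosaminoglycan synthesis 9 rose and 6 fell (34.1% called). Sulf1, which trims heparan sulfate, went from 102 ± 3.98 to 149 ± 1.16 CPM. The block called 23 genes of glycosaminoglycan synthesis. Peroxisome, fatty acid oxidation and Golgi coat genes were called in 7 of 40, 7 of 28 and 9 of 42 cases. These shares lie near or below the 25.8% of all genes, with Pex6, of peroxisomal protein import, up by 0.45 ± 0.05 and Cpt1a, which passes fatty acids to mitochondria, down by 0.29 ± 0.04. The block called 14, 17 and 21 members of the 3 lists. Leaving out R26 normoxia replicate 2 gave 4, 4 and 5, leaving out R26 normoxia replicate 1 gave 4 in the first 2 lists, and 4 fatty acid oxidation genes were called without R26 normoxia replicate 3 or R26 hypoxia replicate 2.

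**Figure D3:**
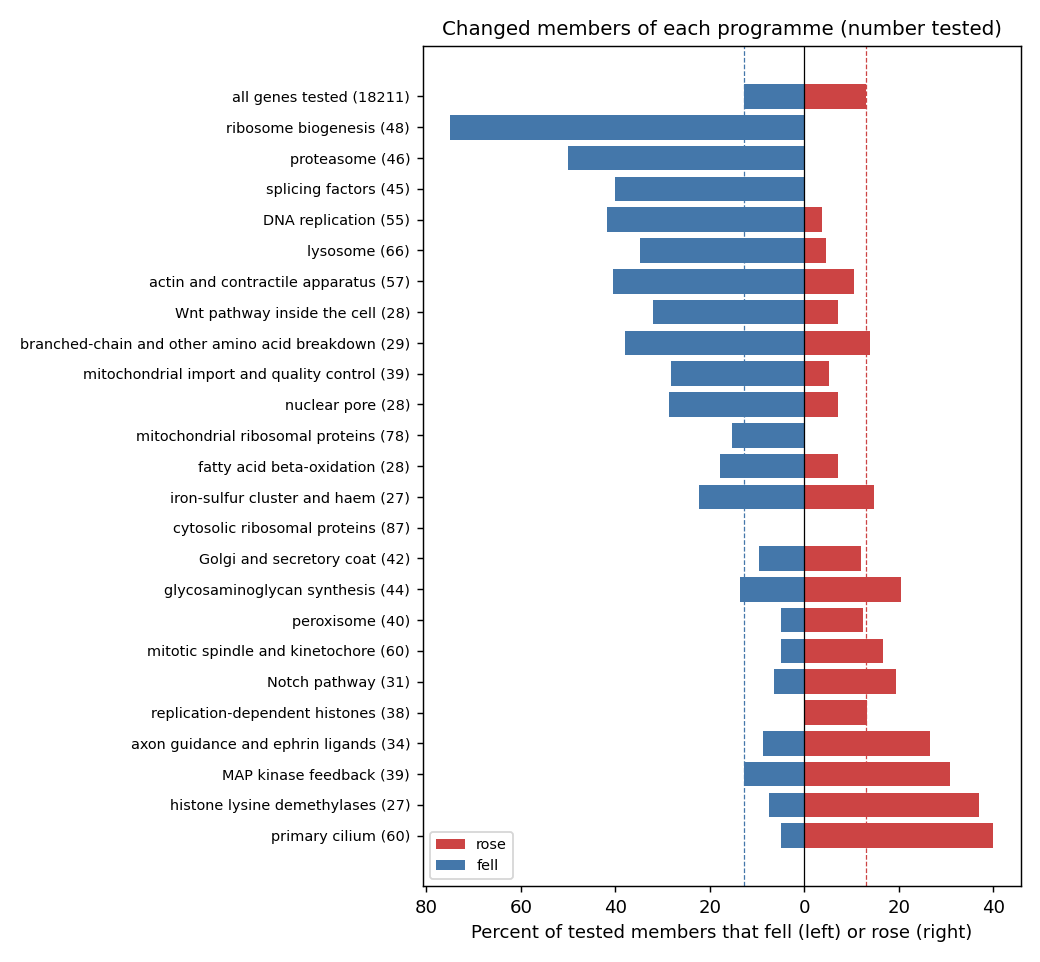
Bars give the percent of tested members that fell (to the left) or rose (to the right) in each programme, with the number tested in brackets and dashed lines at the 12.7% and 13.1% of all genes tested. Ribosome biogenesis reaches furthest to the left with 75% and primary cilium furthest to the right with 40%.

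**Figure D4:**
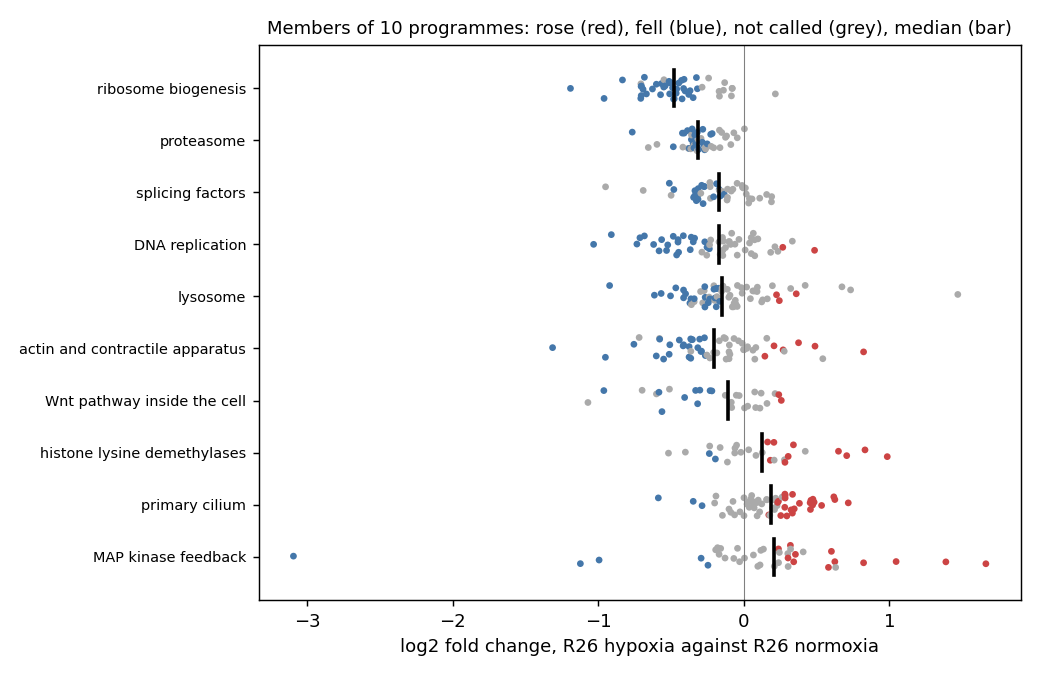
Each point is 1 gene of a programme, with its log2 fold change of R26 hypoxia against R26 normoxia on the horizontal axis and its call as the colour, and black bars mark medians. The medians of the 10 programmes drawn run from -0.48 in ribosome biogenesis to 0.21 in MAP kinase feedback.

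The low oxygen response was then read apart in the 2 depth classes. All 4697 changed genes had the same sign in the shallower libraries (2 of each group) and in the deeper library (1 of each group), where 78.2% of all genes tested had. A call used all 6 libraries, so this is a description. Of the 606 genes changed by at least 1 on the log2 scale, 228 passed 1 in both classes, with log2 ratios taken after adding 0.5 CPM, which shrinks the ratios of low genes. Across the changed genes, which were called from these same libraries, the ratios of the classes correlated with r = 0.97 and differed by a median of 0.07. Over all genes tested r was 0.81.

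Calls made without the deeper libraries give a reading that the deeper pair did not enter. From the 6 shallower libraries alone 2814 genes were called higher, and 2729 of them (97%) were higher in the deeper pair too, where 49.5% of all genes tested were. Of 2649 called lower, 2587 (97.7%) were lower in the deeper pair, against 49.7% of all genes tested. All 83 transcription factors, all 45 receptors and all 39 ribosome biogenesis genes called lower kept the direction in the deeper pair, and so did all 34 proteasome genes called lower and all 26 cilium genes called higher. The share was smaller for secreted factors called higher (68 of 74) and lysosomal genes called higher (7 of 8). It was smaller too for long non-coding RNAs called higher (152 of 161) or lower (82 of 87). The median of the long non-coding RNAs called lower was -0.74 as a fold change of the shallower fit and -0.36 as a ratio in the deeper pair. That ratio was taken after adding 0.5 CPM, which shrinks low genes, so the 2 medians cannot be compared. A group of 194 genes stood 5 times or more above the deeper level in shallower libraries, of which none was called by edgeR and none is named above as changed. Such a gap lies inside each group and widens its spread, so these genes could hardly be called.

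**Figure D5:**
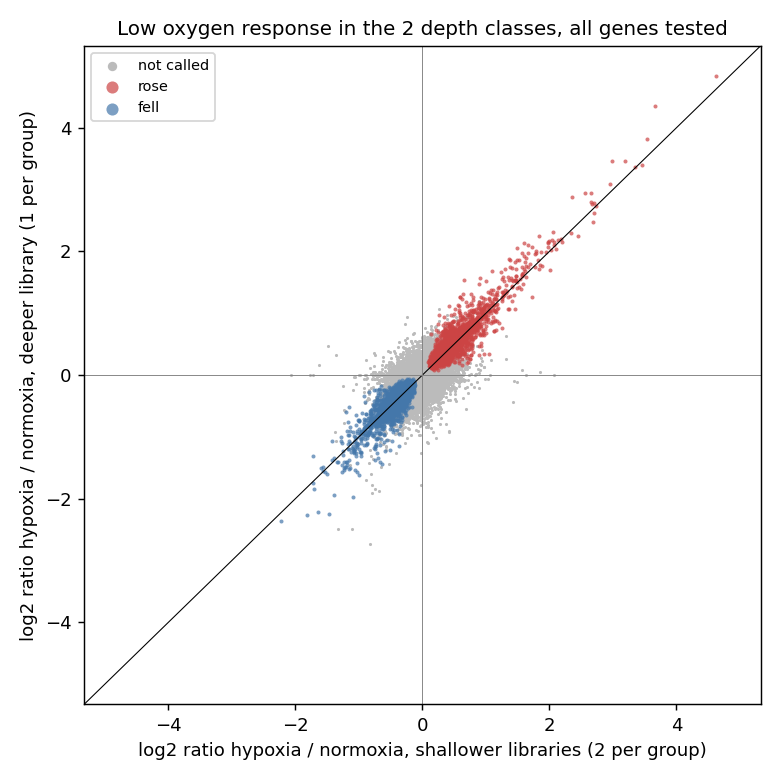
Each point is a gene tested, with the log2 ratio of hypoxia to normoxia in the shallower libraries on the horizontal axis and in the deeper library of each group on the vertical axis, coloured by its call, and the line marks equal ratios. Changed genes lie in the quadrants of equal sign along the line (r = 0.97, and 0.81 over all genes tested), and genes not called spread around 0.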

How the data were processed

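Poly-A RNA of 9 libraries was sequenced, and the deposited values are counts of reads per gene, which the authors made before deposit. The submitters' processing notes name bcl2fastq 2.17, Trimmomatic, STAR, featureCounts, DESeq2 and the build GRCm38. For the annotation release, the strand setting and multiply mapping reads the entry is: not given in the sources used here. Of 49315 gene identifiers, 49056 were paired with a GENCODE M21 symbol and 259 were not.

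From the deposited counts, edgeR 4.0.16 (R 4.3.3, limma 3.58.1) fitted all 9 libraries in 1 model with group as the only term, TMM scaling and the default filter on low counts. The contrast R26 hypoxia minus R26 normoxia was tested two-sided with the quasi-likelihood test, with Benjamini-Hochberg adjustment over all 18211 genes tested and a threshold of 0.05. Of 12 forms of this fit, which gave 4591 to 4729 changed genes, the form that gave 4697 was used because an earlier analysis of these data gave that count. DESeq2 1.42.0, other filters, each library left out, the replicate block and the depth class were alternatives, and the steps were tested on simulated data. CPM values are scaled by TMM, errors of log2 fold changes are standard errors, and totals per library limit the precision of low genes. Tables and plots were made with python 3.11.15, pandas 2.3.3, numpy 2.4.6 and matplotlib 3.10.9.

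Replicate numbers come from the labels. The deviations of same-numbered normoxic and hypoxic libraries from their group means correlated with 0.75, 0.72 and 0.93 over 13471 genes, above the 0.1 taken as a sign of pairing, so blocked counts stand beside results they move by over 1.5 times. The crossed pairs of replicates 1 and 2 correlated with 0.66 and 0.74, and replicate 3 is the deeper library in both R26 groups.

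The gene lists, the classes and the comparison itself were chosen with earlier results of these data known. Named genes are, for each class, the 5 highest and 5 lowest log2 fold changes among changed genes whose mean log2 CPM was 3 or more (0 for long non-coding RNAs), no overlap between groups, the same sign in both depth classes, a proper symbol and no place on the list of known HIF target and glycolysis genes. Each programme adds up to 3 such members. Some genes that meet the rule are not reported here. Genes outside the rule are said in the text to be picked after their values were seen. Shared sequence is the percent of a gene's exonic stretches of 50 bases also found in another gene.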

Additional observations from a re-analysis of the deposited data

How the results depend on the processing

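With the replicate block the counts of changed genes were 7409 in all (3909 higher, 3500 lower), 393 transcription factors and 393 long non-coding RNAs, and the block brought no other class count past 1.5 times its value. With the depth class as a term they were 7095 in all, 3619 lower and 398 long non-coding RNAs. Of the 4697 changed genes, 4543 were also changed with DESeq2, 4697 with the depth class as a term, 4158 with the shallower libraries only and 3917 with the R26 libraries only. Leaving out each library in turn gave 3384 to 4541 changed genes, and an earlier form of the quasi-likelihood fit gave 4591. The median of the replication-dependent histones was 0.488 with genes of at least 1 CPM in 3 libraries and 0.159 to 0.416 without 1 library. The median without 1 library ran from -0.151 to -0.033 for amino acid breakdown and from -0.163 to -0.024 for the Wnt pathway inside the cell. The percent of changed genes with the same sign in both depth classes was 99.4 with the block, 99.3 with the depth class as a term, 97.3 with the shallower libraries only and 99.3 to 100 without 1 library. The median of the cytosolic ribosomal proteins (-0.044) changed sign with the shallower libraries only (0.056) and without R26 normoxia replicate 1 (0.031), R26 normoxia replicate 2 (0.089) or R26 hypoxia replicate 3 (0.212), and that of the Golgi coat genes (-0.015) lay between -0.066 and 0.041 without 1 library. No called gene followed changed its sign. Of 175 genes followed, 162 kept their call in every fit and 13 lost it at least once. The cause of these differences was not tested. The 13 genes that lost a call included some of low level, such as Hcar1, Ttc39aos1 and Mir155hg. Others among them stood at much higher levels, such as Hnrnpd, Tomm70a and Sec13. Mir210 was not among the 13, and whether depth limits genes near 1 CPM most was not tested.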
